A study of Mus musculus with 3 samples.

Results

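Expression of 6 growth cytokine genes, Il2, Il3, Csf2, Csf1, Lif and Osm, was followed in mouse CD4 T cells grown as Th17, Th22 or Th0 cells. The genes were grouped as cytokines best known for their effect on the growth and survival of other cells. They were chosen with earlier results of these data known. All 6 were measured, out of 19938 genes in all. Each was read by 1 probe that matches no other gene symbol, so none has a second probe in the array to check it. The T cells were naive splenic CD4+ cells of OT-II transgenic mice, strain B6.Cg-Tg(TcraTcrb)425Cbn/J, which carry a T cell receptor for an ovalbumin peptide. Before culture they were sorted as CD25-, CD62L high and CD44 low. They were activated with that peptide on spleen antigen-presenting cells from Il23a-/- mice that had been depleted of T cells. Th17 cells received IL-6 and TGFβ, Th22 cells received IL-6 alone, and Th0 cells received neither cytokine. All 3 cultures shared the transgenic receptor, the peptide and the Il23a-/- presenting cells. Cells were purified on magnetic beads after 60 hours, and each condition was hybridised to 1 array. There was therefore no replicate, no test could be run, and all differences below compare single arrays.

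IL-2, encoded by Il2, is the classical T cell growth factor. It is made by activated CD4 T cells, acts through a receptor that activates STAT5, supports regulatory T cells and restrains Th17 differentiation. IL-3 (Il3) and GM-CSF (Csf2) are made by activated T cells and drive the growth and activation of myeloid cells, mast cells and basophils, and their genes lie next to each other. M-CSF (Csf1) sustains macrophages, and LIF (Lif) and oncostatin M (Osm) belong to the IL-6 family and signal through gp130, the receptor chain encoded by Il6st.

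The deposited values are centred. For 100% of the 28853 probes the middle value of the 3 arrays was exactly 0, so a value says how far an array lay from the middle array of that probe, and no expression level can be had. The log base is not given in the sources used here and base 2 was assumed, so every fold rests on that assumption. Higher values were read as more transcript. The threshold for counting a gene as different was 2-fold, or 1 log2, between a pair of arrays. In bulk RNA, fewer cells that make a transcript and less transcript per cell cannot be told apart.

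The promoters of Il2 and Il3 are shown because these are the genes that were far lower in Th17 than in both other arrays. Each runs 5′ to 3′ on the gene's own strand, from 250 bases before to 50 bases after the start that RefSeq gives the gene, in build GRCm38.p6. The Il2 window is chr3:37125905-37126204 on the minus strand, and the Il3 window is chr11:54267230-54267529 on the minus strand. Capitals mark each GGAAA, the core bound by NFAT factors, which activate cytokine genes downstream of the T cell receptor, or its reverse complement. Exact matches to the AP-1 motif TGANTCA would be marked too, but neither window holds one. Sites that depart from these letters were not searched.
Il2: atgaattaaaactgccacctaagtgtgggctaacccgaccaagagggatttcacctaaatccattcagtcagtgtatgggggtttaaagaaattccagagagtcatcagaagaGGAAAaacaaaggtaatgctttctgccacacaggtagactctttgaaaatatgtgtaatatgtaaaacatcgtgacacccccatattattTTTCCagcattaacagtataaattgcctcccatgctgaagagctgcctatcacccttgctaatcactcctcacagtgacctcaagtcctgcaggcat
Il3: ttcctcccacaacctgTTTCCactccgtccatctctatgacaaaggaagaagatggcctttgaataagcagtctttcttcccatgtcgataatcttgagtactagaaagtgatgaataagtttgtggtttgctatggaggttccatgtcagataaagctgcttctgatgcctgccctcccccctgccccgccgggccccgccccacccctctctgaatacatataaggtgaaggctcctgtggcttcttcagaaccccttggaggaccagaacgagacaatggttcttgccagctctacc

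Of the 6 genes, 5 had a promoter window in the RefSeq table (Osm was not matched), and 7 motifs were searched on both strands. The NFAT core stood at -137 and -47 in the Il2 window and at -234 in the Il3 window, counting from the first base of the gene as 0 to the motif's leftmost base. Csf2 and Csf1 held 3 such cores each and Lif 1. The core is common: 61.3% of all 32851 promoter windows hold at least 1, 26.7% at least 2 and 9.42% at least 3. The Il2 window also held TATAAA, the TATA box, at -31, which 13.6% of windows hold. The Il3 window held the Runx motif TGTGGT at -128, which 16.8% of windows hold. It also held, at -101, the letters AGATAA that Gata factors bind, which 11.2% of windows hold. These motifs overlap no NFAT core. Lif held the only AP-1 motif (TGANTCA) of the 5 windows, at -228, and 7.81% of windows hold one. It also held TGTGGT at -102 and CAGAC, a Smad core, at -23. The Csf2 window may lie upstream of the start that T cells use, which was not tested, so its matches hold for the RefSeq start alone. It held AGATAA at -247 and CAGAC at 3, and 49.6% of windows hold CAGAC. The STAT motif TTCNNNGAA was in none of the 5 windows and is in 8.3% of all. Matches are letters in a window and say nothing of whether a factor bound there.

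Il2 was lower in Th17 than in either other array. Its centred log2 value was -3.10 in Th17, 0 in Th22 and 0.21 in Th0. The Th17 array stood far below, and Th22 and Th0 lay close together. The difference was -3.10 log2 for Th17 against Th22, or 8.58-fold lower in Th17, and -3.31 log2 for Th17 against Th0, or 9.91-fold lower. For Th22 against Th0 it was -0.21 log2, or 1.15-fold lower in Th22. Among 19938 genes, Il2 had rank 18 from the lowest for Th17 against Th22. Of the log2 difference between Th17 and Th0, 93.7% lay between Th17 and Th22, the pair of cultures whose labels differ in TGFβ alone. Quantile normalization, which forces equal spread on the arrays, was applied to the centred values and not to array intensities. An array that truly lay farther from the others is therefore drawn in too. After it, Il2 was 3.71-fold lower in Th17 than in Th22 and 4.35-fold lower than in Th0.

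Il3 had the same order of arrays with a larger gap. Its centred log2 value was -4.87 in Th17, 0 in Th22 and 0.68 in Th0. Th17 was again the array that stood apart, and Th22 lay somewhat below Th0. Il3 was 29.3-fold lower in Th17 than in Th22 (-4.87 log2, rank 3 from the lowest) and 47.1-fold lower than in Th0 (-5.56 log2, rank 4). Between Th22 and Th0 it differed by -0.68 log2, or 1.61-fold with Th22 lower. Of the log2 difference between Th17 and Th0, 87.7% lay between Th17 and Th22. Quantile normalization made it 14.9-fold lower in Th17 than in Th22 and 28.3-fold lower than in Th0. The difference of Th22 from Th0 came to -0.93 log2, or 1.90-fold with Th22 lower, still under 2-fold. It is 1.98-fold if the deposited values are natural logs.

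Csf2 divided the arrays in another way. Its centred log2 value was -0.18 in Th17, 0 in Th22 and 2.55 in Th0. Both arrays of cells given IL-6 were low and close together, and Th0 was high. Csf2 was lower in Th22 than in Th0 by 5.86-fold (-2.55 log2, rank 8 from the lowest of all genes) and 6.66-fold lower in Th17 than in Th0 (-2.73 log2, rank 45). Th17 and Th22 differed by -0.18 log2, or 1.14-fold lower in Th17, so 6.72% of the log2 difference between Th17 and Th0 lay between these 2 arrays.

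**Figure D1:**
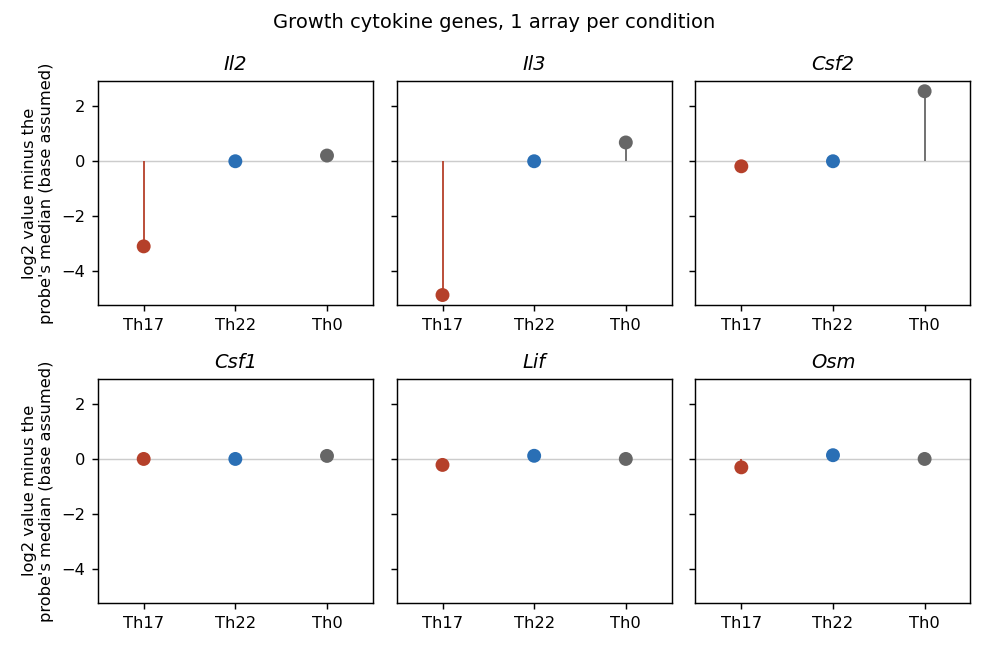
Centred log2 value (vertical axis, base assumed) of each of the 6 growth cytokine genes on the Th17, Th22 and Th0 arrays, 1 point per array and no error bar because each condition had 1 array. Il2 and Il3 are low in Th17 alone (-3.10 and -4.87), Csf2 is high in Th0 alone (2.55), and Csf1, Lif and Osm stay near 0 on all arrays.

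Csf1, Lif and Osm differed little between the arrays. Csf1 had centred values of 0 in Th17, 0 in Th22 and 0.11 in Th0, and was thus equal in Th17 and Th22 and 1.08-fold lower in both than in Th0. Lif had -0.22 in Th17, 0.11 in Th22 and 0 in Th0, and Osm -0.31, 0.14 and 0 in the same order. Both IL-6 family genes were lowest in Th17 and highest in Th22, and Th17 against Th22 gave -0.33 log2 for Lif and -0.44 log2 for Osm, or 1.26-fold and 1.36-fold lower in Th17. Because levels are lacking, these small differences do not say whether the 3 transcripts were detected at all. Of all probes, 40.3% had the same value on all 3 arrays, and 24.3% had the same value on 2 arrays, as Csf1 did. Where 2 arrays were equal the remaining array was higher for 48.4% of probes and lower for 51.6%.

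The only repeat measurement in these arrays is that of genes with several probes. Over 999 such genes, the first and last probe of a gene disagreed with an SD of 0.18 log2 in the difference of Th17 from Th22, 0.14 in that of Th22 from Th0, and 0.19 in that of Th17 from Th0. For 95% of these genes the disagreement was at most 0.35, 0.28 and 0.39 log2. It was over 1 log2 in 6, 1 and 5 of them. All 999 genes entered, also those that hardly differed between arrays. The ranges may therefore be too narrow for genes that differ much, which was not tested. The differences of Il2 and Il3 between Th17 and both other arrays, and those of Csf2 from Th0, were several times these values. The differences of Il3 between Th22 and Th0 (-0.68 log2) and of Osm between Th17 and Th22 (-0.44) were outside the 95% range. Those of Csf1, of Lif, of Il2 between Th22 and Th0 and of Csf2 between Th17 and Th22 were within it. How much separate cultures of 1 condition vary is unknown.

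Between Th17 and Th22, 2 of the 6 genes passed 2-fold with Th17 lower, against 1.5% of all genes, and 0 passed with Th17 higher, against 1.1% of all genes. The median of the 6 was -0.39 log2, against 0 over all genes. For Th22 against Th0, 1 of the 6 was at least 2-fold lower, against 0.261% of all genes, and 0 were higher, against 0.547%. The median was -0.16 log2 against 0. For Th17 against Th0, 3 of the 6 were lower, against 1.56% of all genes, and 0 were higher, against 1.47%. The median was -1.52 log2 against 0. The last comparison shares an array with each of the others. Because the 6 genes were chosen with earlier results of these data known, these counts and medians describe them and give no independent support.

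Genes with the most similar differences were listed for each of the 3 genes past 2-fold, by the Euclidean distance over Th22 minus Th0 and Th17 minus Th0, a measure over 3 arrays. Nearest to Il2 were Trat1, which encodes a T cell receptor-associated adaptor (distance 0.18 log2), Il10ra, a chain of the IL-10 receptor (0.25), and Itih5 (0.34). Trat1 was 7.62-fold and Il10ra 7.08-fold lower in Th17 than in Th22. Nearest to Il3 were Akr1c18, an enzyme of steroid metabolism (0.33), Tnfsf8, which encodes CD30 ligand (0.52), and Serpinb6b, a protease inhibitor (0.53). These 3 were 25.6-fold, 21.5-fold and 20.4-fold lower in Th17 than in Th22, all less than Il3. After quantile normalization the same difference was -1.79 log2 for Trat1, -1.69 for Il10ra and -1.74 for Itih5. It was -3.24 log2 for Akr1c18, -3.00 for Tnfsf8 and -2.76 for Serpinb6b. Nearest to Csf2 were Epas1, which encodes the hypoxia-inducible factor HIF-2α (0.05), Cd83, an activation marker (0.34), and Il4, the Th2 cytokine (0.37). Epas1 was 5.92-fold, Cd83 5.76-fold and Il4 4.60-fold lower in Th22 than in Th0.

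**Figure D2:**
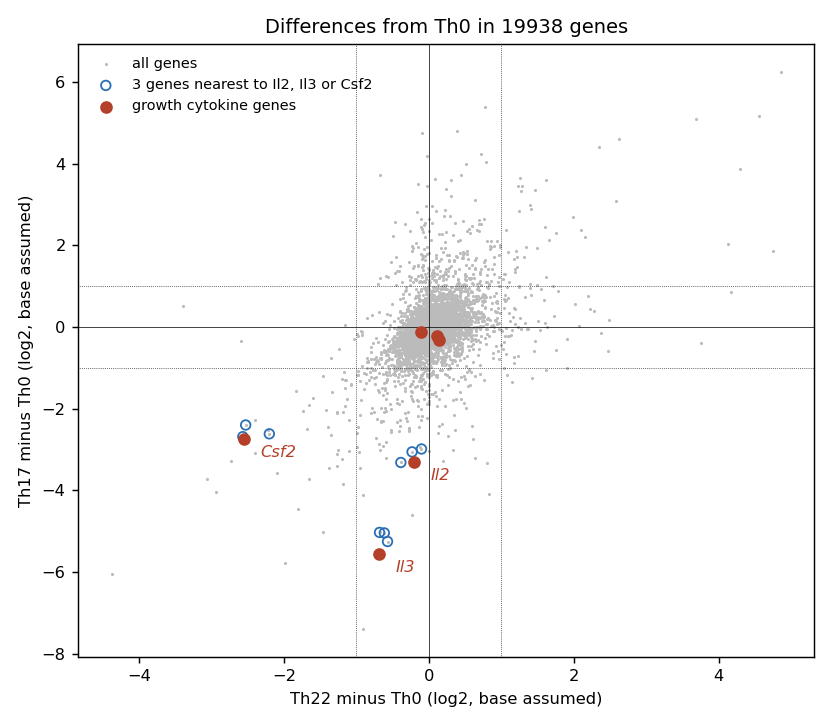
Log2 difference of Th22 from Th0 (horizontal) and of Th17 from Th0 (vertical) for 19938 genes, which share the Th0 array. Dotted lines mark 2-fold, red points are the 6 growth cytokine genes, and open circles are the 3 genes nearest to Il2, Il3 or Csf2. Il2 and Il3 lie far down near the vertical axis, Csf2 lies low and to the left, and the other 3 lie within the dotted lines.

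Il3 and Csf2 are neighbours on chromosome 11, with no other protein-coding gene between them in the RefSeq gene order, and their differences were unlike. Th17 against Th22 gave -4.87 log2 for Il3 and -0.18 for Csf2, and Th22 against Th0 gave -0.68 for Il3 and -2.55 for Csf2. The same stretch of the chromosome holds the Th2 cytokine genes. Within the 10 protein-coding genes on either side of the pair, Il4, Il5 and Il13 were the genes past 2-fold for Th22 against Th0, all lower in Th22, at -2.20, -1.65 and -2.94 log2. Csf2, at -2.55 log2, lay among them. Between Th17 and Th22, 2 of the 20 neighbours passed 2-fold, Il13 (-1.09 log2) and Acsl6 (-1.71 log2), an acyl-CoA synthetase gene that borders Il3 on the side away from Csf2. Acsl6 was equal in Th22 and Th0, and came to -1.02 log2 for Th17 against Th22 after quantile normalization. Il13 came to -0.66 log2 in the same comparison, which is under 2-fold. P4ha2, which borders Csf2 on the other side, was -0.65 log2 for Th17 against Th22 and 0.31 log2 for Th22 against Th0. For Th17 against Th0 5 neighbours were at least 2-fold lower: Il4, Il5, Il13, Acsl6 and Irf1, an interferon response factor gene whose probes disagreed (-1.96 and -0.34 log2). Over all genes, 1.5% were at least 2-fold lower for Th17 against Th22 and 0.261% for Th22 against Th0. The share was 1.56% for Th17 against Th0. The median of the 20 neighbours was -0.24 log2 for Th17 against Th22 and -0.02 for Th22 against Th0. The neighbours were chosen by their position after the members' values were known.

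Il2 lies beside Il21 on chromosome 3, and these genes also went separate ways. Il21, which encodes a cytokine that supports Th17 and follicular helper cells, was 2.16 log2 higher in Th22 than in Th0 and 2.21 log2 higher in Th17 than in Th0, and differed by 0.05 log2 between Th17 and Th22. Adad1, the neighbour on the other side of Il2, was equal on all arrays. Of the 18 measured genes among the 20 nearest, the only other one past 2-fold was the growth factor gene Fgf2, at 1.20 log2 for Th17 against Th22 and -1.16 log2 for Th22 against Th0. Quantile normalization moved these values of Fgf2 to 3.27 and -3.24 log2. Around Lif and Osm, which are also adjacent, Castor1, next to Osm, was -1.69 log2 in Th17 minus Th22 and 0.49 log2 in Th22 minus Th0. Nefh, farther off, was -1.01 log2 for Th17 against Th0 and came under 2-fold (-0.79 log2) after quantile normalization. The other 18 neighbours of that pair, and all 17 measured neighbours of Csf1, were within 2-fold in all comparisons. Over all genes, from 0.261% to 1.56% passed 2-fold in a given direction.

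**Figure D3:**
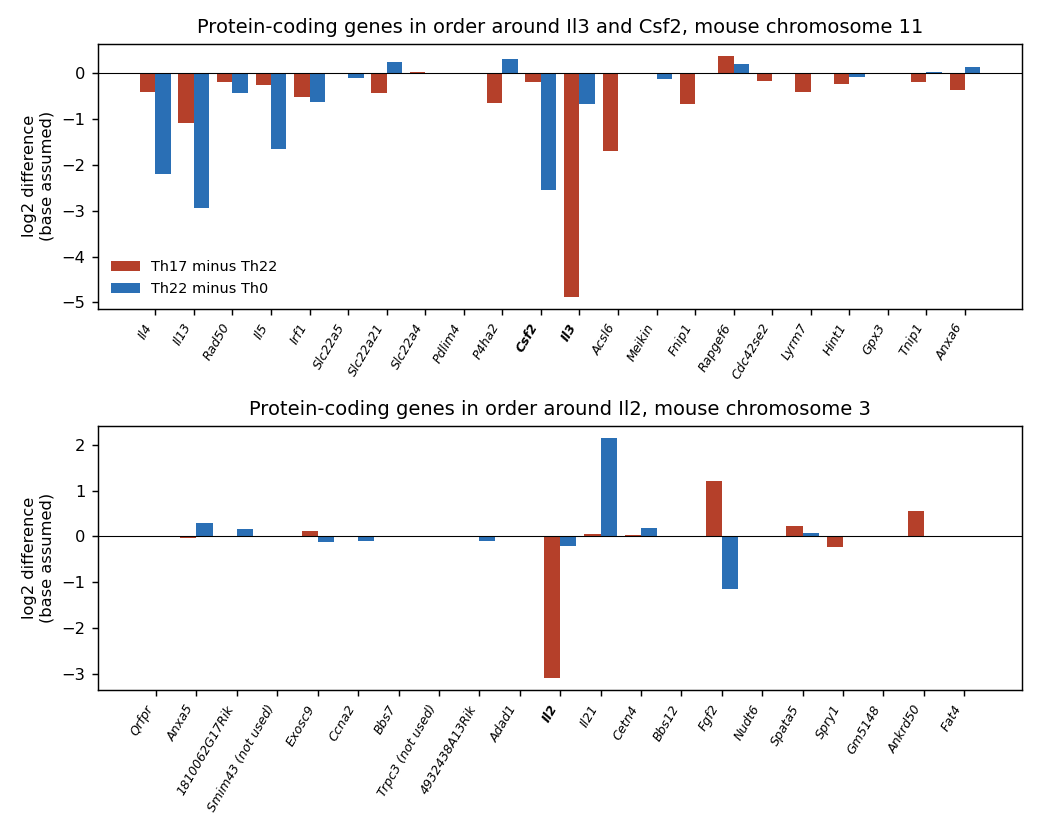
Log2 differences of Th17 from Th22 (red bars) and of Th22 from Th0 (blue bars) for protein-coding genes in chromosome order, 10 on either side of Il3 with Csf2 (top) and of Il2 (bottom). Il3 has the lowest red bar (-4.87) and Csf2 a low blue bar (-2.55), while Il21 beside Il2 has the highest blue bar (2.16).

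Of 11 listed receptor chains for these cytokines 10 were measured, and Il2rg, a chain of the IL-2 receptor, was not. Of the 10, 6 were exactly equal on all 3 arrays, against 40.3% of all probes. These were Il3ra, the IL-3 receptor alpha chain, Csf2rb and Csf2rb2, the beta chains, Csf1r, the M-CSF receptor, and Lifr and Osmr. Csf2ra, the GM-CSF receptor alpha chain, differed by 0.01 log2 between Th17 and Th22. Il2ra, which encodes CD25, the alpha chain of the high-affinity IL-2 receptor, differed by 0.10 log2 between Th17 and Th22 and 0.03 log2 between Th22 and Th0. Il2rb, the beta chain, differed by -0.05 log2 for Th22 against Th0. Il6st, the chain shared by IL-6, LIF and oncostatin M, was the only one past 2-fold, at 1.86 log2 for Th17 against Th22 and 1.75 log2 for Th17 against Th0, which is 3.62-fold and 3.37-fold higher in Th17. Over all genes, 1.1% were at least 2-fold higher for Th17 against Th22 and 1.47% for Th17 against Th0. The list's median was 0 in each comparison, as it was over all genes.

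Genes that act downstream of IL-2 were listed too. Among 8 measured JAK and STAT genes, only Stat4 passed 2-fold in any comparison. From 0.261% to 1.56% of all genes passed 2-fold in a given direction. Stat4, which transmits IL-12 signals, was -1.03 log2 for Th17 against Th22 and -1.12 log2 for Th17 against Th0. Stat5a and Stat5b, which transmit IL-2 and GM-CSF signals, were within 2-fold, at -0.14 and 0.11 log2 for Th17 against Th22. The median of the 8 was -0.09 log2 between Th17 and Th22 and 0.04 between Th22 and Th0. Among 13 known STAT5 targets and feedback genes, Osm included, the median was -0.10 log2 for Th17 against Th22. Of these, 1 was higher and 0 lower in Th17 than in Th22, against 1.1% and 1.5% of all genes. That gene was Socs2, a feedback inhibitor, at 1.51 log2 over 2 probes of 1.27 and 1.75. For Th17 against Th0, 2 of the 13 were higher and 1 lower, against 1.47% and 1.56% of all genes. Socs2 (1.24 log2) and Socs3 (1.09 log2, with probes at 0.83 and 1.35) were higher and Pim2, a survival kinase gene, was lower (-1.18 log2). Socs3 is also a target of IL-6 and STAT3. Cish, a STAT5-induced inhibitor, was equal on all arrays, and Bcl2, the survival gene, was -0.65 log2 for Th17 against Th22. Between Th22 and Th0, 0 of the 13 passed 2-fold, against 0.547% of all genes higher and 0.261% lower in Th22. Quantile normalization left Stat4 and, for Th17 against Th0, Socs2 and Pim2 under 2-fold.

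Of 9 measured genes of other growth factors for blood cells, 5 were equal on all arrays, against 40.3% of all probes. In the comparison of Th22 with Th0, 2 of the 9 were at least 2-fold lower, against 0.261% of all genes. The median was 0 in each comparison. Il5, the eosinophil growth factor, was -1.65 log2 and Tnfsf11, which encodes RANKL, -1.12 log2 for Th22 against Th0, and both were lower in Th17 than in Th0 too (-1.90 and -1.75 log2). These resemble Csf2 in that both cultures given IL-6 were below Th0. Of 7 measured genes of other IL-6 family cytokines, Ebi3, a subunit of IL-27 and IL-35, was the only one past 2-fold, at -1.27 log2 for Th17 against Th0, and the median was again 0. Over all genes, 1.56% were at least 2-fold lower for Th17 against Th0.

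Among 16 other T helper cytokine genes, 4 were at least 2-fold higher and 2 lower in Th17 than in Th22, with a median of 0.13 log2. The higher ones were Il10 (4.40 log2), Il9 (3.90), Il17a (1.99) and Il17f (1.39), and the lower ones Il13 (-1.09) and Tgfb3 (-1.08). None lay as far below Th22 in Th17 as Il2 or Il3 did. Over all genes, 1.1% were higher and 1.5% lower in Th17 than in Th22. These shares were 0.547% and 0.261% for Th22 against Th0, and 1.47% and 1.56% for Th17 against Th0. Il17f and Il13 came under 2-fold after quantile normalization, which also moved Il9 to 5.29 log2 and Il17a to 1.36 log2. For Th22 against Th0, 4 were higher (Il17f at 4.86 log2, Il17a at 2.62, Il21 at 2.16 and Tgfb3 at 1.06) and 5 lower (Il9 at -3.40, Ifng at -3.06, Il13 at -2.94, Il4 at -2.20 and Il5 at -1.65), with a median of -0.06 log2. Quantile normalization moved Il9 to -4.91 log2 and Ifng to -3.66 log2 in this comparison. Csf2, at -2.55, had a value between those of Il13 and Il4. For Th17 against Th0, 4 were higher (Il17f, Il17a, Il10 and Il21) and 5 lower, with a median of 0.30 log2. The lower ones were Il13 (-4.03 log2), Ifng (-3.72), Il4 (-2.62), Il5 (-1.90) and Il24 (-1.11), and Il2 (-3.31) and Csf2 (-2.73) had values within their range while Il3 (-5.56) lay below them.

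**Figure D4:**
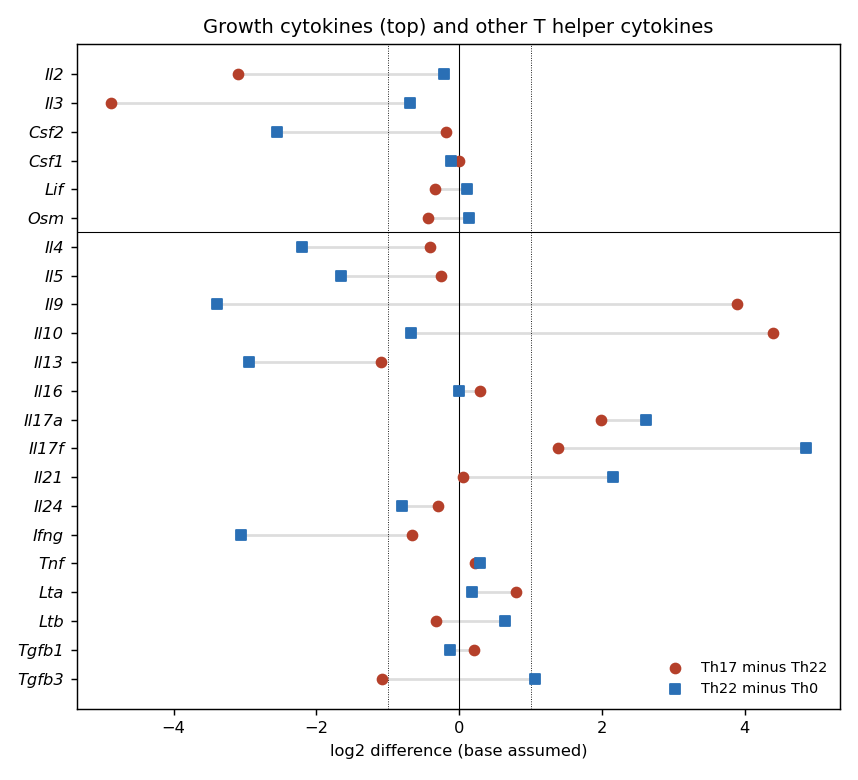
Log2 difference of Th17 from Th22 (red circles) and of Th22 from Th0 (blue squares) for the 6 growth cytokine genes (top) and 16 other T helper cytokine genes (bottom), with dotted lines at 2-fold. Il2 and Il3 have their red circles farthest to the left (-3.10 and -4.87), while Csf2, Il4, Il5, Il9, Il13 and Ifng have blue squares left of the 2-fold line.

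Of 28 measured T cell transcription factor genes, most of them known for acting on Il2, Il3 or Csf2, 4 were at least 2-fold higher and 3 lower in Th17 than in Th22, with a median of -0.09 log2. Those higher were Foxp3 (3.65 log2), which represses Il2 in regulatory T cells, Ikzf3 (1.84), which encodes the Il2 repressor Aiolos, Rora (1.60) and Runx1 (1.26). Those lower were Tbx21 (-2.66), which encodes T-bet, Gata3 (-2.65) and Fosb (-1.23), a subunit of AP-1. Quantile normalization left Runx1 under 2-fold and moved Tbx21 to -1.56 and Gata3 to -1.55 log2. Over all genes, 1.1% were higher and 1.5% lower in Th17 than in Th22. These shares were 0.547% and 0.261% for Th22 against Th0, and 1.47% and 1.56% for Th17 against Th0. For Th22 against Th0, Rora was higher (1.39 log2) and Gata3 (-1.81) and Tbx21 (-1.18) lower, with a median of 0.07 log2. For Th17 against Th0, Foxp3 (3.50 log2), Rora (2.99), Ikzf3 (1.25) and Runx1 (1.21) were higher, the last 2 under 2-fold after quantile normalization. Gata3 (-4.46), Tbx21 (-3.84) and Prdm1 (-1.12), which encodes the Il2 repressor Blimp-1, were lower, and the median was 0.03 log2. Quantile normalization moved Foxp3 to 2.79, Gata3 to -3.72 and Tbx21 to -3.10 log2 here. Of 11 measured genes for proteins that control decay of AU-rich cytokine mRNAs, such as Zfp36, 0 passed 2-fold in any comparison, with a median of 0.09 log2 for Th17 against Th22.

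Markers of other cells were read as differences, because the centring removed levels, summed levels included, and the presence of a cell type cannot be checked. Of 20 myeloid and dendritic cell markers 0 passed 2-fold in any comparison and 13 were equal on all arrays. Of 10 mast cell and basophil markers 0 passed. Of all probes, 40.3% were equal on all arrays, and from 0.261% to 1.56% of all genes passed 2-fold in a given direction. Of 10 measured B cell markers Ebf1 was -2.67 log2 in Th17 minus Th22 and 1.62 log2 in Th22 minus Th0, and 7 were equal on all arrays. Of 8 CD8 and NK cell markers, Gzma (-2.28 log2) and Cd8b1 (-1.14 log2) were lower in Th17 than in Th22, with Cd8b1 within 2-fold and Gzma at -1.33 log2 after quantile normalization. Of 10 measured pan T cell genes 0 passed 2-fold, but 8 were below 0 for Th17 against Th22, with a median of -0.28 log2, and Cd4 itself was at -0.55 log2. In that comparison these 8 moved in the direction of Il2 and Il3. For Th17 against Th0, 6 of the 10 were above 0 and 4 below, with a median of 0.01 log2. For Th22 against Th0 all 10 were above 0, with a median of 0.12 log2. The part of pan T cell genes in the differences of Il2 and Il3 was not tested.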

How the data were processed

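Total RNA of 3 samples was measured on single-colour, biotin-labelled Affymetrix arrays, 1 per condition, grouped by the T-helper subset in the labels. The deposited table holds values taken as log2, centred on each probe's median over the arrays. How it was normalized, with which software and to which log base, is not given in the sources used here. Gene symbols came from the platform annotation, brought up to date by Entrez identifier (21698 of 21789 single-symbol probes matched a RefSeq table of GRCm38.p6). The 1621 probes with several symbols, and 5443 the annotation does not list, were not used. Probes of a gene were averaged, and differences between arrays were taken with Python 3.11.15 and pandas 2.3.3. No test was run because each group had 1 array, and that number limits the precision. The count of genes past 2-fold was run on simulated normal noise, whose SD was that of the probe disagreement divided by the square root of 2. This noise was small beside the threshold and held no variation between cultures or arrays. The run therefore checks the counting alone and not how reliable the counts are. In each comparison the count found 50 of 50 genes planted at 1.5 log2. Of 50 planted at 0.75 log2 it found 2 between Th17 and Th22, 0 between Th22 and Th0, and 2 between Th17 and Th0. The genes named are the 6 members, all receptor chains, list members past 2-fold, and the 3 genes nearest to each member past 2-fold, with some list members within 2-fold and chromosome neighbours added after their values were seen. The members and the gene lists were chosen with earlier results of these data known. Alternatives were quantile normalization of the centred values, natural logs, the median of a gene's probes, probes of several symbols, and a 3-fold threshold.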

Additional observations from a re-analysis of the deposited data

How the results depend on the processing

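The counts of growth cytokine genes past 2-fold, 2 between Th17 and Th22, 1 between Th22 and Th0, and 3 between Th17 and Th0, were unchanged by quantile normalization, natural logs, the median of probes and the averaging in of probes with several symbols. The last pair left all 18 of their differences as they were, since each gene has 1 probe. If the deposited values are natural logs, 859, 343 and 1021 genes pass 2-fold in these comparisons, in the same order, in place of 520, 161 and 604, and Il3 is 131-fold and Il2 22.2-fold lower in Th17 than in Th22. A 3-fold threshold leaves 244, 59 and 290. Quantile normalization gives 308 for Th22 against Th0, including all 161 of the deposited scale, with 150 higher and 158 lower in place of 109 and 52. It gives 399 for Th17 against Th22, with 197 higher and 202 lower in place of 220 and 300, and 420 for Th17 against Th0. These hold 316 of the 520 and 403 of the 604 genes of the deposited scale in the same direction. Of 89 differences past 2-fold among listed, nearest and neighbouring genes it left 14 under 2-fold and turned none. Differences under 2-fold on the deposited scale were not in that count. For Th22 against Th0, quantile normalization raised the count of lower T helper cytokine genes from 5 to 7. It raised that of lower transcription factor genes from 2 to 3 and of lower CD8 and NK cell markers from 0 to 1. No paired analysis was possible because each group has 1 array and no test. Signal over background is unknown.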
